A study of Mus musculus with 21 samples.

Results

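The genes described here are 38 genes of the unfolded protein response and of endoplasmic reticulum (ER) stress, chosen by symbol from a list of sensors, transcription factors, chaperones, degradation factors and Atf4 targets. They were chosen with earlier results of these data known. They are 38 of the 18194 genes that the arrays read through a probe set with a single gene symbol. All 38 passed the filter on dim probe sets and were among the 11854 genes tested. Expression was measured in mouse small intestine on 21 Affymetrix arrays, 20 of them from sorted cells that were Mist1-positive per the labels and carried TdTomato, a red fluorescent reporter. Cells were parted by the surface protein CD24 into a CD24lo and a CD24hi fraction, and both fractions were taken in 5 conditions, with 2 arrays per fraction and condition. The conditions were untreated, Lgr5-ablated (titled DT), irradiated with 10 Gy, treated with doxorubicin (a DNA-damaging drug, spelled doxorubucin in the titles) and expressing NICD, an abbreviation that the labels do not spell out. All sorted cells shared the TdTomato reporter. The labels used here give no strain, age, time after treatment, driver of NICD or group that received the DT treatment without ablation. Whether arrays sharing a group stem from different animals is not stated, so p-values measure the spread between these samples, which may be technical. The remaining array was whole intestine, with the cell type label villi, and entered no test.

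The unfolded protein response is a set of signalling pathways that adjust the folding capacity of the ER to the amount of protein entering it. The sensor Ern1 (IRE1 alpha) and its gut relative Ern2 (IRE1 beta) are nucleases that splice the messenger of the transcription factor Xbp1. Atf6 is a membrane-bound transcription factor released by cleavage, and Eif2ak3 (PERK) is a kinase that slows translation while the transcription factor Atf4 is made. Secretory cells of the gut such as Paneth and goblet cells carry a large ER, and Xbp1 is known to be needed for Paneth cells in mice. These arrays measured the summed signal of a probe set, so splicing of Xbp1 and cleavage of Atf6 were not measured.

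Levels below are log2(signal + 16) with n = 2 arrays per group, and a difference is a difference of these levels with its standard error (SE). The added 16 makes the fold of a dim gene look smaller than it is. Adjusted p-values come from limma, a linear model fitted over all 11854 genes, with the Benjamini-Hochberg adjustment over all genes of a comparison and a threshold of 0.05. A gene is called higher or lower only where it passed. With 2 arrays per group, arrays can lie apart without a difference between the groups. The share of all genes without overlap was not counted. A lack of overlap given beside a call rests on the same arrays and adds no support to the call. All 8 comparisons of a treatment with untreated cells use the same 2 untreated arrays of their fraction, so they are not independent of each other. In such bulk samples, fewer cells of a type and less RNA per cell cannot be told apart. Across genes, replicate arrays had correlations between 0.942 and 0.985, and the median signal ran from 101 to 158. One array differed from the rest in its control probes: the actin signal at the 3' end over that at the 5' end was 1.03 on CD24hi NICD replicate 2, where the other sorted arrays gave 1.30 to 1.58. Bhlha15, the gene of Mist1, was higher in CD24hi cells by 2.24 ± 0.12 and Cd24a, the gene of CD24, by 1.01 ± 0.08, averaged over the conditions. The mean level of 6 pan-epithelial genes (Epcam, Cdh1, Krt8, Krt18, Krt19 and Vil1) lay between 12.79 and 13.44 on all 20 sorted arrays.

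Many genes of the response share short promoter motifs. The ER stress element (ERSE) is bound by Atf6 and Xbp1 together with NF-Y, and was searched as CCAAT followed after a gap of 9 bases by CCACG. ERSE-II was searched as ATTGG followed after 1 base by CCACG, and the C/EBP-ATF element, which Atf4 binds, as TGATGNAA. Both strands were searched in RefSeq windows of 300 bases, from 250 before to 50 after each transcript start (GRCm38.p6). Of the 38 genes, 33 had a window, and none was found for Ern2, Atf6, Manf, Hyou1 and Derl1. The ERSE was present in 10 of these 33 genes, against 0.119% of all 32851 windows (39 windows). Of the 10, 8 were chaperone or folding genes (of 13 with a window) and 2 were degradation genes (of 7 with a window). ERSE-II was present in Herpud1 and Dnajb11, against 0.0365% of all windows, and the C/EBP-ATF element in Asns, Chac1, Trib3 and Herpud1, against 3.97%. There were 0 overlapping matches, and 18 of the 33 genes had no match to any of the 3 patterns, among them Xbp1, Ern1, Eif2ak3, Atf4, Ddit3 and Ppp1r15a. A match is a description of the sequence and not of binding.

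The ERSE matches are shown because they recur across the chaperone branch, in which Ero1lb passed between the fractions and Hspa5 did not. Each is written from CCAAT to CCACG, with CCAAT and CCACG in capitals, and with the strand it is read from.
Calr (chr8:84847075-84847093, + strand): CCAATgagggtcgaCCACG
Canx (chr11:50325800-50325818, - strand): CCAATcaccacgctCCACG
Creld2 (chr15:88819520-88819538, - strand): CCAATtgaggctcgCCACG
Dnajc3 (chr14:118937827-118937845, + strand): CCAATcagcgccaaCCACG
Ero1lb (chr13:12565682-12565700, - strand): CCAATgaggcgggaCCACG
Hsp90b1 (chr10:86705638-86705656, - strand): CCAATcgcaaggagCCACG
Hsp90b1 (chr10:86705533-86705551, + strand): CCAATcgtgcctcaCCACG
Hspa5 (chr2:34772025-34772043, + strand): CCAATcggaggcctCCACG
Pdia6 (chr12:17266491-17266509, + strand): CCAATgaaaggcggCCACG
Derl3 (chr10:75893242-75893260, - strand): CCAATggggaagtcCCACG
Syvn1 (chr19:6046532-6046550, + strand): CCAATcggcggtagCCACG

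**Figure D1:**
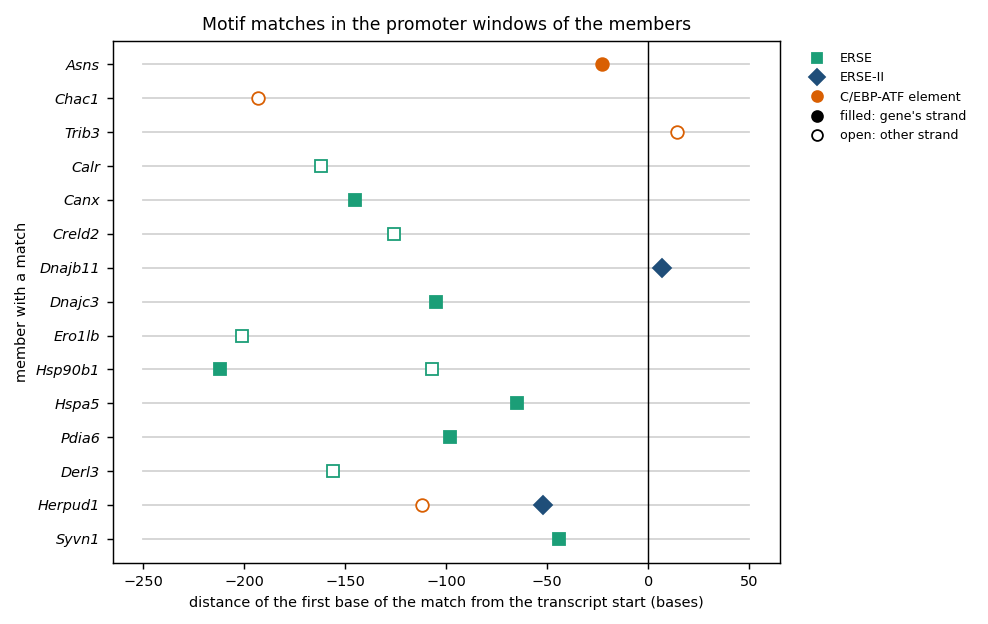
Position of each motif match, as the distance in bases of its first base from the transcript start (horizontal axis, 0 is the start), for the 15 members with a match (vertical axis). Squares are ERSE, diamonds ERSE-II and circles C/EBP-ATF elements, filled on the strand of the gene and open on the other strand. The ERSE matches lie 44 to 212 bases before the start.

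The windows of 4 genes are shown whole, read along the gene, because they hold each kind of match and because these genes lead or contrast in the comparisons below. Hspa5 (chr2:34771840-34772139, + strand) is the textbook ERSE gene, Ero1lb (chr13:12565633-12565932, + strand) differed most between the fractions, Herpud1 (chr8:94386179-94386478, + strand) holds an ERSE-II and a C/EBP-ATF element, and Asns (chr6:7693160-7693459, - strand) fell most firmly after doxorubicin. Capitals mark the matches.
Hspa5: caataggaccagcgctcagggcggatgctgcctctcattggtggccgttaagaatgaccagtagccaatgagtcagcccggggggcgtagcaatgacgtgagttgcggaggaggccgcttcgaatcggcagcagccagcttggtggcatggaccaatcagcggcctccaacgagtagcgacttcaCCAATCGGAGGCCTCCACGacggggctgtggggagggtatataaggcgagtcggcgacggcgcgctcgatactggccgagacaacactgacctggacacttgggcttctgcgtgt
Ero1lb: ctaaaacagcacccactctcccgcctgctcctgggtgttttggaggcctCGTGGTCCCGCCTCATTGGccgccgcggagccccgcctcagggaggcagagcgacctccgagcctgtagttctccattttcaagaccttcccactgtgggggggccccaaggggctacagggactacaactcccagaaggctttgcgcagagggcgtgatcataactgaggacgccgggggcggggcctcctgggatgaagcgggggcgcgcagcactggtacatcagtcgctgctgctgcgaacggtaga
Herpud1: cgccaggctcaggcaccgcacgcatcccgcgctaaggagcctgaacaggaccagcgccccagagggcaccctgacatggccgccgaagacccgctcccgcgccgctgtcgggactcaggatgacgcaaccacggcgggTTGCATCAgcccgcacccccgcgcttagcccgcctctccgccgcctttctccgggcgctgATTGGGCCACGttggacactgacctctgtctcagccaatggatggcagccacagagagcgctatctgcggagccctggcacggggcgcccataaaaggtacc
Asns: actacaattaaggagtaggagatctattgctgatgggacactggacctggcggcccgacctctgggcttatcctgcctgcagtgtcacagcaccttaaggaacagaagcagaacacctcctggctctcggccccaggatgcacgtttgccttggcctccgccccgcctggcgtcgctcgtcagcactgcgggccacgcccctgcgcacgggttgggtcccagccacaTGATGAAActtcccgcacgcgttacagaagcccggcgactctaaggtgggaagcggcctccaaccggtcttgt

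In CD24hi cells the sensors Ern1 and Atf6, most genes of the Atf4 branch, a set of ER-associated degradation genes and the oxidase Ero1lb were higher than in CD24lo cells, while the major chaperones did not pass the test. Averaged over the 5 conditions (10 arrays per fraction), 16 of 38 members were higher, where 27.4% of all genes tested were higher, and 0 were lower, where 19.2% of all genes were. The members were chosen with earlier results known, and most were brighter than the median gene tested, so the share of all genes is a rough comparison. At an unadjusted p below 0.05 limma gave 19 members in either direction. The members' median difference was 0.25, beside 0.07 for all genes. By role, 6 of 8 Atf4 branch genes, 5 of 8 degradation genes, 2 of 5 sensors and their transcription factors, 3 of 15 chaperone and folding genes and 0 of 2 translocon genes were higher.

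**Figure D2:**
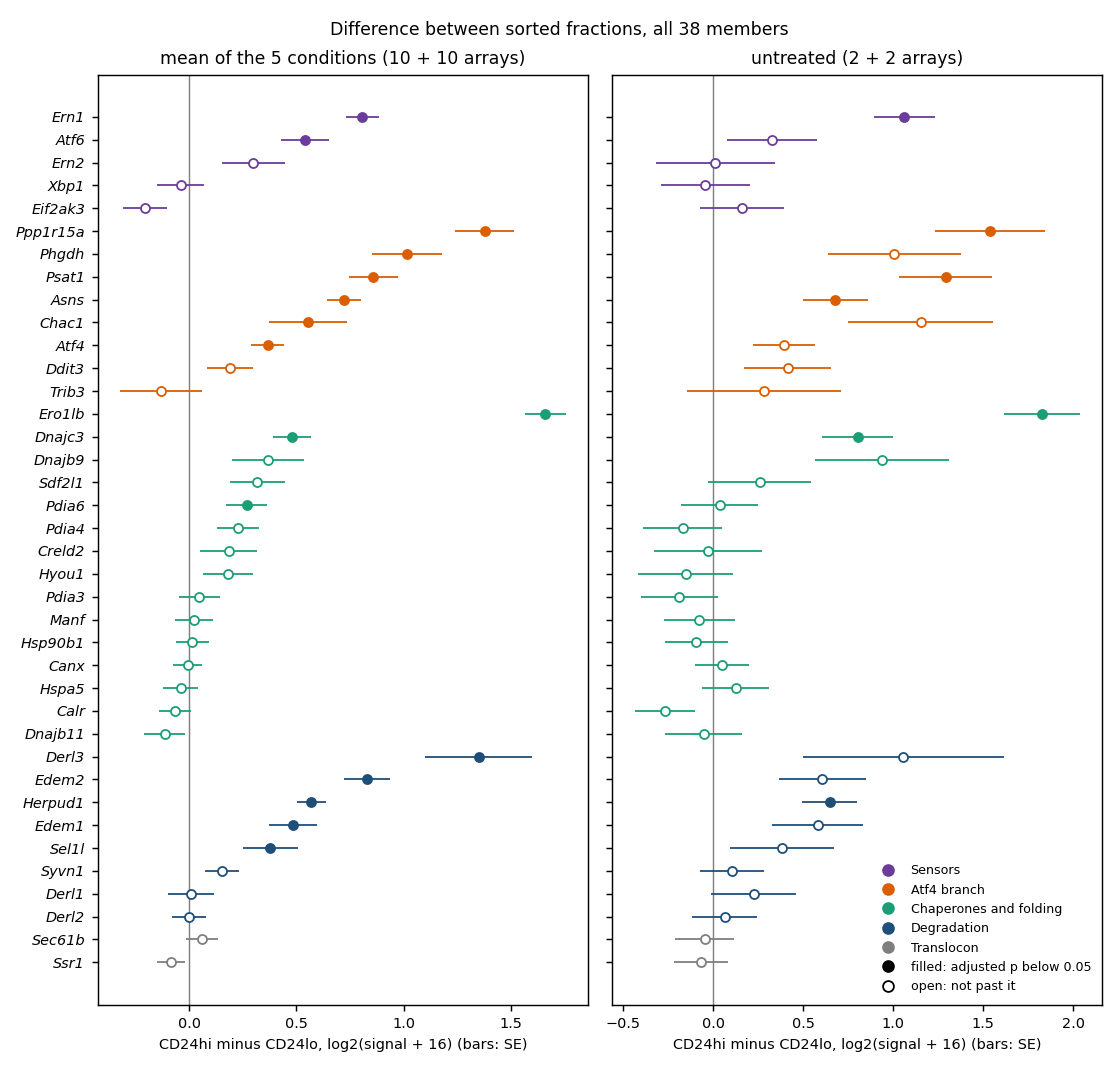
Difference of log2(signal + 16) between CD24hi and CD24lo cells for all 38 members (vertical axis, coloured by branch), averaged over the 5 conditions (left, 10 arrays per fraction) and in untreated mice (right, 2 arrays per fraction). Points are the fitted differences, bars the SE and filled points an adjusted p below 0.05. The 16 filled points on the left and 7 on the right all lie above 0.

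Among the sensors, Ern1 gave 10.03, 10.27 and 10.56 as lowest, median and highest level over the 10 CD24lo arrays, and 10.31, 11.22 and 11.42 over the 10 CD24hi arrays. The CD24hi arrays lay above the CD24lo arrays in every condition except NICD, where the fractions overlapped. The averaged difference was 0.81 ± 0.08, adjusted p = 2.5e-07, and 2 further probe sets of Ern1 gave 0.97 and 0.39. Atf6 ran from 10.81 over 11.12 to 11.38 in CD24lo cells and from 11.06 over 11.64 to 12.54 in CD24hi cells, a difference of 0.54 ± 0.11, adjusted p = 0.00084. Its CD24hi arrays lay above the CD24lo arrays in 4 of 5 conditions, the untreated pair overlapping. Ern2 differed by 0.30 ± 0.15 (adjusted p = 0.110) and Eif2ak3 by -0.21 ± 0.10 (adjusted p = 0.111), both short of the threshold, and 2 further probe sets of Eif2ak3 gave 0.34 and 0.28.

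Xbp1 was among the brightest members, with 12.98, 13.53 and 14.18 in CD24lo cells and 12.90, 13.45 and 14.09 in CD24hi cells. Over all arrays the ranges overlapped, and with doxorubicin both CD24hi arrays (13.50 and 13.47) lay below both CD24lo arrays (13.59 and 13.74). The difference was -0.04 ± 0.11, adjusted p = 0.788, and 3 further probe sets of Xbp1 gave 0.20 to 0.32, so the sign depended on the probe set.

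In the Atf4 branch, Ppp1r15a, the phosphatase subunit that lifts the block on translation, gave 7.82, 8.91 and 9.45 in CD24lo cells and 9.71, 10.34 and 10.74 in CD24hi cells. The 2 fractions did not overlap on any of the 20 arrays. Its difference was 1.38 ± 0.14, adjusted p = 4.55e-07. Ppp1r15a is also quickly induced by many stresses. Of 7 listed genes that respond to tissue dissociation, 4 were higher in CD24hi cells (Jun, Egr1, Atf3 and Ier2, by 0.44 to 0.60), where 27.4% of all genes were. The heat shock genes Hspa1a and Hspa1b of that list went the other way, uncalled. Their mean levels were 7.32 and 8.73 in CD24lo and 6.73 and 8.22 in CD24hi cells. The part of the listed genes in the Ppp1r15a difference was not tested.

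Phgdh and Psat1 make serine, and both were higher in CD24hi cells. Phgdh ran from 7.48 over 8.18 to 9.53 in CD24lo cells and from 8.90 over 9.27 to 9.81 in CD24hi cells, and differed by 1.02 ± 0.16, adjusted p = 8.6e-05. Psat1 ran from 9.67 over 10.52 to 11.77 and from 10.78 over 11.68 to 11.92, and differed by 0.86 ± 0.12, adjusted p = 1.3e-05. The Psat1 arrays of the fractions were apart in 4 of 5 conditions and overlapped with NICD. Asns, which makes asparagine, gave 11.20, 12.20 and 12.64 in CD24lo cells against 12.38, 12.82 and 13.19 in CD24hi cells, a difference of 0.72 ± 0.08, adjusted p = 1.9e-06. Within each of the 5 conditions both CD24hi arrays of Asns and of Phgdh lay above both CD24lo arrays. A further probe set of Asns gave 0.80 and one of Psat1 gave 0.975. The called members Phgdh, Atf6, Edem1, Edem2, Sel1l and Pdia6 also had further probe sets, whose single values are not given. Their calls remained when the probe sets of a gene were averaged.

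Atf4 itself was higher by 0.37 ± 0.08 (adjusted p = 0.00087), and a second probe set gave 0.14. Chac1, which breaks down glutathione, was higher by 0.55 ± 0.18 (adjusted p = 0.019), a call lost after quantile normalization (adjusted p = 0.0561). Ddit3 (CHOP), a transcription factor of prolonged stress, differed by 0.19 ± 0.11 (adjusted p = 0.162). The pseudokinase gene Trib3 differed by -0.13 ± 0.19 (adjusted p = 0.597) and was above the median of its array on 3 of 20 arrays, all CD24lo.

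The chaperones and folding enzymes were near the top of the scale in both fractions. Hsp90b1, Pdia3, Calr, Canx and Hspa5 stood at percentiles of 98.8 to 99.5 of mean level among all genes tested. Hspa5 (BiP), the main chaperone of the ER, gave 13.14, 13.30 and 13.61 in CD24lo cells and 12.52, 13.23 and 13.89 in CD24hi cells, with the CD24hi arrays spread on both sides of the CD24lo arrays. Its difference was -0.04 ± 0.08, adjusted p = 0.709. Further probe sets of Hspa5 gave 0.06 and -0.77, and the mean over its probe sets was called lower (-0.25, adjusted p = 0.0463). The other 4 of these genes differed by -0.07 to 0.05, each short of the threshold.

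Ero1lb, the oxidase that supplies disulfide bonds to the protein disulfide isomerases, differed most in this branch. It gave 9.40, 9.76 and 10.08 in CD24lo cells and 10.81, 11.37 and 12.03 in CD24hi cells, without overlap. The difference was 1.66 ± 0.09, a fold of 3.17, adjusted p = 7.3e-10, and ranged from 1.34 after Lgr5 ablation to 2.00 after irradiation. Its 2 further probe sets gave 1.87 and 0.89. Dnajc3, a co-chaperone that also restrains eIF2 alpha kinases, was higher by 0.48 ± 0.09 (adjusted p = 0.00028), but 4 further probe sets gave 0.07 to 0.19 and the mean over probe sets lost the call (adjusted p = 0.058). The disulfide isomerase gene Pdia6 was higher by 0.27 ± 0.09 (adjusted p = 0.029), a call lost without any one of 9 of the 20 arrays, with 75th percentile centring (adjusted p = 0.0835) and with no intensity trend (0.0503). The remaining 12 genes of the branch did not pass, from Dnajb11 at -0.12 to Dnajb9 at 0.37.

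Of the genes of ER-associated degradation, Herpud1, which organises the degradation complex, gave 12.44, 12.69 and 13.14 in CD24lo cells and 12.88, 13.30 and 13.69 in CD24hi cells. The difference was 0.57 ± 0.07, adjusted p = 4.4e-06, and a second probe set gave 0.78. Edem2, which trims mannose from misfolded glycoproteins, ran from 11.62 over 12.03 to 12.58 and from 12.23 over 12.81 to 13.71, and differed by 0.83 ± 0.11, adjusted p = 9.7e-06. Both CD24hi arrays of Edem2 exceeded both CD24lo arrays in each of the 5 conditions. Edem1 was higher by 0.48 ± 0.11 (adjusted p = 0.0021) and the adaptor gene Sel1l by 0.38 ± 0.13 (adjusted p = 0.024), the latter without a call when any one of 5 arrays was left out or with 75th percentile centring (adjusted p = 0.0629).

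Derl3, a channel-like protein of retrotranslocation, was higher by 1.35 ± 0.25, adjusted p = 0.00030, at low levels. It gave 5.03, 6.82 and 7.36 in CD24lo cells and 6.54, 7.98 and 8.51 in CD24hi cells, and was above the array median on 2 CD24lo and 9 CD24hi arrays. Derl1, Derl2 and the ubiquitin ligase gene Syvn1 differed by 0.01, 0.00 and 0.15, and the translocon genes Sec61b and Ssr1 by 0.06 and -0.09, all short of the threshold.

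Markers of several cell types moved with these differences. Averaged over the conditions, 5 of 6 tested Paneth, all 5 tuft, all 5 stem cell and 3 of 7 enteroendocrine markers were higher in CD24hi cells, and all 6 tested enterocyte, 4 of 8 goblet and 3 of 6 pan-epithelial markers were lower. Another goblet marker, Spink4, was higher by 0.63 ± 0.11 (adjusted p = 0.00027). Plasma and B cell markers, cells with a large ER, had mean levels of 6.36 to 8.23 on CD24lo and 6.49 to 8.78 on CD24hi arrays (10 of 11 listed genes on the array, 8 tested, with Tnfrsf17 and Cd79b too dim), with Pou2af1 and Cd79a higher in CD24hi cells and Jchain between 8.68 and 13.38 over all sorted arrays. The 1 macrophage and the 1 stroma marker bright enough to test were higher, and T cell and pancreatic acinar markers had 0 calls in limma. The part of these cells in the member differences was not tested.

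Wider lists of the same pathways are given beside the 27.4% of all genes that were higher and the 19.2% that were lower. Of 27 tested Atf4 amino acid targets, 13 were higher and 6 lower. The highest were Mthfd2, a mitochondrial folate enzyme, at 1.21 ± 0.10, the amino acid transporter gene Slc7a5 at 1.13 ± 0.13 and Vldlr at 0.995 ± 0.09, and Cth, which makes cysteine, was lower at -0.89 ± 0.20. Of 21 folding genes 7 were higher and 1 lower (Fkbp11 at 1.003 ± 0.12, Dnajc1 at 0.66 ± 0.09), of 14 degradation genes 5 and 1 (Ube2g2 at 0.50 ± 0.10, Os9 at 0.46 ± 0.07), and of 21 translocation and N-glycosylation genes 9 and 1 (Srpra at 0.68 ± 0.08, Sec62 at 0.54 ± 0.09). Of 13 regulators 3 were higher and 2 lower. Besides Bhlha15 these included Creb3l3, a membrane-bound transcription factor of the enterocyte and liver, at -2.11 ± 0.22. The median differences of these 5 lists were 0.04 to 0.20, beside 0.07 for all genes.

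In untreated mice alone, with 2 arrays per fraction, 7 of 38 members were higher in CD24hi cells, where 7.51% of all genes were higher, and 0 were lower, where 6.87% of all genes were. Limma gave 13 members at an unadjusted p below 0.05. Ero1lb stood at 9.43 and 9.97 in CD24lo and 11.33 and 11.72 in CD24hi cells (difference 1.83 ± 0.21, adjusted p = 3.3e-05). Ppp1r15a stood at 8.85 and 9.45 against 10.74 and 10.64 (1.54 ± 0.31, adjusted p = 0.0028). Psat1 stood at 10.57 and 10.34 against 11.61 and 11.88 (1.29 ± 0.26, adjusted p = 0.0029). For these genes and for Ern1, at 10.24 and 10.03 against 11.24 and 11.15 (1.06 ± 0.17, adjusted p = 0.00050), no array of one fraction reached the other, and the call remained without any one array.

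Dnajc3 (0.80 ± 0.20, a call lost with averaged probe sets, adjusted p = 0.0659), Asns (0.68 ± 0.18) and Herpud1 (0.65 ± 0.15) also passed in untreated mice. Each lost its call when 1 of 2 particular arrays was left out, with adjusted p-values of up to 0.154, 0.240 and 0.0825. Fewer members passed without untreated CD24hi replicate 2, a fit with a single array in that group. Hspa5 differed by 0.12 ± 0.19 (adjusted p = 0.729), Xbp1 by -0.04 ± 0.25 (0.938), Ddit3 by 0.41 ± 0.24 (0.293) and Atf4 by 0.39 ± 0.17 (0.144), short of the threshold. In the wider lists Slc7a5 (1.04 ± 0.29), Vldlr (1.03 ± 0.19) and Mthfd2 (0.97 ± 0.23) were higher in untreated CD24hi cells too, as were the folding genes Fkbp7 (1.15 ± 0.23) and Dnajc1 (0.93 ± 0.20), while Got1 (-0.85 ± 0.24) was lower.

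**Figure D3:**
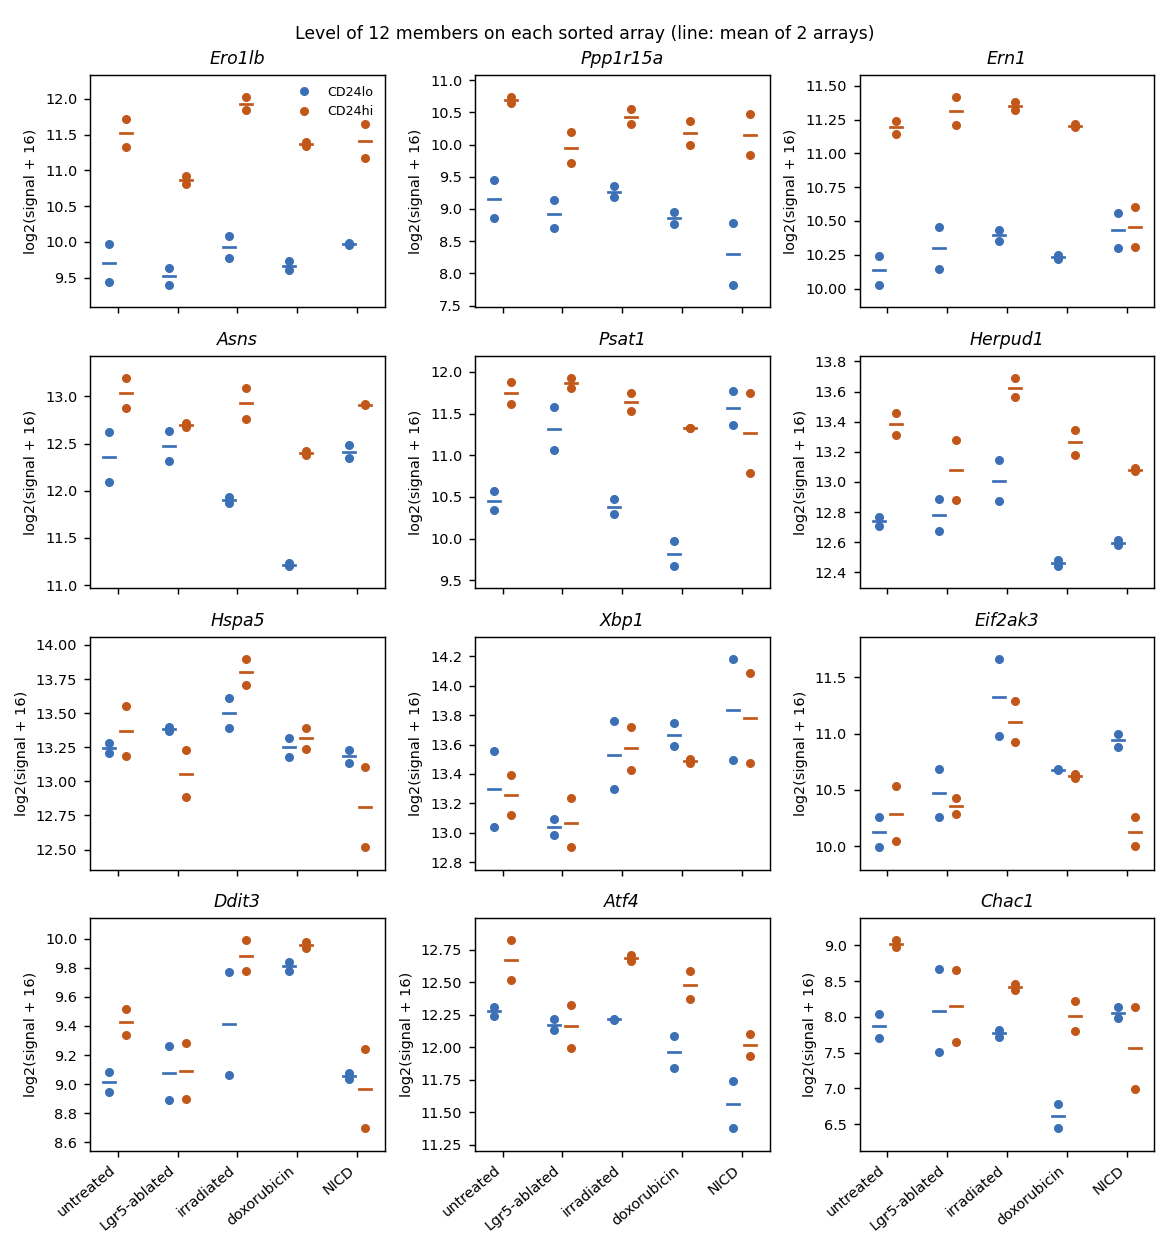
Level of 12 members as log2(signal + 16) (vertical axes, each with its own range) on each sorted array, by condition (horizontal axis). Points are arrays, lines the mean of the 2 arrays of a group, blue CD24lo and orange CD24hi. Ero1lb and Ppp1r15a keep the fractions apart in all 5 conditions, and the Ern1 fractions meet with NICD.

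After Lgr5 ablation no member passed in either fraction. In CD24lo cells limma called 0 of 38 (0.236% of all genes), with 1 at an unadjusted p below 0.05, Psat1 at 0.87 ± 0.26 (adjusted p = 0.333). In CD24hi cells it called 0 of 38 (0.852% of all genes), with 8 at an unadjusted p below 0.05, all negative. There 32 of 38 differences were negative, including all 15 of the chaperone and folding branch, with a median of -0.25 over the members, beside 0.0003 over all genes. The median of the branch's levels, each relative to its own mean over the sorted arrays, was -0.22 and -0.09 on the ablated arrays, between the -0.23 and 0.33 of the untreated arrays. Dnajc3 gave the smallest p-value, from 12.07 and 12.57 in untreated to 11.47 and 11.60 in Lgr5-ablated CD24hi cells (-0.79 ± 0.20, adjusted p = 0.0797). Ero1lb went from 11.33 and 11.72 to 10.81 and 10.92 (-0.66 ± 0.21, adjusted p = 0.216). Neither difference passed. In the same cells 1 of 8 goblet markers was called higher, Clca1 by 1.40 ± 0.18, and goblet markers had mean levels of 13.21 and 12.90 against 12.51 and 12.71 untreated. Enteroendocrine markers stood at 12.05 and 9.95 against 10.04 and 9.63, with 0 of 7 called by limma and 4 at an unadjusted p below 0.05. Their part was not tested.

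The named transcription factors and Hspa5 did not pass after Lgr5 ablation. In CD24lo cells Hspa5 differed by 0.14 ± 0.19, Xbp1 by -0.26 ± 0.25, Ddit3 by 0.06 ± 0.24 and Atf4 by -0.10 ± 0.17, with adjusted p-values of 0.834 to 0.964. In CD24hi cells Hspa5 differed by -0.31 ± 0.19, Xbp1 by -0.19 ± 0.25, Ddit3 by -0.33 ± 0.24 and Atf4 by -0.51 ± 0.17, with adjusted p-values of 0.253 to 0.905. Of the wider lists 1 gene passed, Tram1, a protein of the translocation channel, at -0.60 ± 0.13 in CD24hi cells (adjusted p = 0.038).

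After irradiation the PERK gene Eif2ak3 was higher in CD24lo cells. It stood at 9.99 and 10.26 in untreated and at 11.66 and 10.98 in irradiated CD24lo cells, a difference of 1.20 ± 0.23, adjusted p = 0.0075. This was the 1 member called higher, where 1.58% of all genes were, and 0 were called lower, where 2.45% were. Limma gave 3 members at an unadjusted p below 0.05. Further probe sets of Eif2ak3 gave 1.49 and 0.81. The call was lost without untreated CD24lo replicate 1 (adjusted p = 0.0562) and without irradiated CD24lo replicate 1 (adjusted p = 0.160).

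In CD24hi cells limma called 0 of 38 members after irradiation (4.44% of all genes), with 8 at an unadjusted p below 0.05. Eif2ak3 went from 10.04 and 10.53 to 11.29 and 10.92, a difference of 0.82 ± 0.23 with adjusted p = 0.0558. The 15 chaperone and folding differences were all positive there, from 0.14 to 0.66 with a median of 0.36, beside 0.0023 for all genes. Some members passed without untreated CD24hi replicate 2, a fit with a single array in that group. Sdf2l1, a partner of the Hspa5 co-chaperones, went from 11.27 and 12.40 to 12.55 and 12.44 (0.66 ± 0.29, adjusted p = 0.263), and Hspa5 from 13.19 and 13.55 to 13.89 and 13.71 (0.43 ± 0.19, adjusted p = 0.258). Neither of these 2 differences passed.

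Of the other named members, Xbp1 differed by 0.23 ± 0.25 in CD24lo and 0.32 ± 0.25 in CD24hi cells after irradiation, Ddit3 by 0.40 ± 0.24 and 0.45 ± 0.24, and Atf4 by -0.06 ± 0.17 and 0.02 ± 0.17. Hspa5 differed by 0.26 ± 0.19 in CD24lo cells. None of these passed, with adjusted p-values of 0.364 to 0.982. In the wider lists Sesn2, a stress gene induced by p53 and by Atf4, was higher in both fractions, by 1.66 ± 0.19 in CD24lo and 1.71 ± 0.19 in CD24hi cells. The serine enzyme gene Shmt2 was lower in both, by -1.11 ± 0.22 and -0.83 ± 0.22. In CD24lo cells Creb3l2, a membrane-bound transcription factor, was higher by 1.16 ± 0.25 and the folding gene Fkbp11 lower by -1.29 ± 0.26.

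Markers of other cells moved with irradiation. In CD24lo cells 4 of 5 stem cell markers were lower, with mean levels of 7.64 and 8.61 against 10.18 and 9.85 untreated. In CD24hi cells 3 of 5 stem cell markers were lower (9.92 and 10.26 against 11.77 and 11.43), as was 1 of 8 plasma and B cell markers, Ms4a1. Goblet markers were higher there in 4 of 8, with mean levels of 13.33 and 13.49 against 12.51 and 12.71, and pancreatic acinar markers in 3 of 4 tested, with 8.57 and 7.25 against 5.48 and 5.21. Their part in the member results was not tested.

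After doxorubicin, Ddit3 was higher in CD24lo cells, and Asns, Chac1, Pdia6 and Pdia4 were lower. Limma thus called 1 of 38 members higher, where 5.47% of all genes were, and 4 lower, where 9.27% were, a share near that of all genes. It gave 14 members at an unadjusted p below 0.05. Asns stood at 12.09 and 12.63 in untreated and at 11.20 and 11.23 in treated cells, a difference of -1.14 ± 0.18, adjusted p = 0.0014. Both treated arrays were lower than every other CD24lo array, and the call remained without any one array. A second probe set of Asns gave -1.27.

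The other doxorubicin calls in CD24lo cells each rested on particular arrays. Ddit3 went from 9.08 and 8.95 to 9.78 and 9.84 (0.80 ± 0.24, adjusted p = 0.037), and a second probe set gave 0.26. Chac1 went from 7.71 and 8.04 to 6.78 and 6.45 (-1.26 ± 0.40, adjusted p = 0.047). Pdia6 went from 12.92 and 13.18 to 12.12 and 12.32 (-0.83 ± 0.21, adjusted p = 0.016), while a second, dimmer probe set gave 0.31, and the mean of the pair lost the call (adjusted p = 0.282). Pdia4, another disulfide isomerase gene, went from 11.66 and 12.05 to 10.86 and 11.27 (-0.79 ± 0.22, adjusted p = 0.025). No treated array of these genes overlapped the untreated ones, which adds no support to calls made on the same arrays. With 1 array left out the adjusted p-values reached 0.181 for Ddit3, 0.230 for Chac1, 0.138 for Pdia6 and 0.222 for Pdia4. Fewer members passed without untreated CD24lo replicate 2 or without either doxorubicin CD24lo array, fits with a single array in a group. The Chac1 call was also lost with a pseudocount of 64 (adjusted p = 0.0633), with no filter (0.0662), with 75th percentile centring (0.0575) and with no intensity trend in the fit (0.0566), and the mean of its probe sets lost the Ddit3 call (0.0620).

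In the same cells Atf4 differed by -0.31 ± 0.17 (adjusted p = 0.222), Hspa5 by 0.00 ± 0.19 (0.994) and Xbp1 by 0.37 ± 0.25 (0.330), and the 3 further probe sets of Xbp1 gave -0.63 to -0.32. Of 27 wider Atf4 targets 9 were lower and 1 higher. Those named are Mthfd2 at -1.78 ± 0.23, Slc7a5 at -1.10 ± 0.29, the tyrosyl-tRNA synthetase gene Yars1 at -1.10 ± 0.29 and Shmt2 at -1.08 ± 0.22, and the higher gene was Sesn2 at 1.01 ± 0.19. Of 21 folding genes 4 were lower, among them Pdia5 at -1.52 ± 0.35 and Fkbp11 at -1.44 ± 0.26. Of 21 translocation and N-glycosylation genes 4 were lower, among them the signal receptor gene Srprb at -0.91 ± 0.20 and Rpn2 at -0.86 ± 0.17. Bhlha15 was lower by -1.19 ± 0.26.

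Markers of Paneth and of other cells moved with this treatment. Paneth markers, of cells with a large ER, were lower in 3 of 6 tested (Mmp7 by -2.39, Habp2 by -2.25 and Itln1 by -1.09), with mean levels of 11.02 and 10.99 on the treated CD24lo arrays against 11.99 and 12.29 untreated. Stem cell markers were lower in 4 of 5, with 8.06 and 7.83 against 10.18 and 9.85. T cell markers were higher in 4 of 5 (8.76 and 8.77 against 5.93 and 5.99), pancreatic acinar markers in 3 of 4 (8.35 and 6.55 against 5.21 and 5.37) and enterocyte markers in 2 of 6 (12.55 and 12.65 against 11.70 and 11.54). Their part in the member results was not tested.

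In CD24hi cells limma called 0 of 38 members after doxorubicin (1.2% of all genes), with 5 at an unadjusted p below 0.05. Asns went from 12.88 and 13.19 to 12.38 and 12.42 (-0.63 ± 0.18, adjusted p = 0.120), and Chac1 from 9.07 and 8.98 to 7.80 and 8.22 (-1.01 ± 0.40, adjusted p = 0.320). Ddit3 went from 9.52 and 9.34 to 9.98 and 9.94 (0.53 ± 0.24, adjusted p = 0.400). The differences of these genes did not pass. Hspa5 differed by -0.05 ± 0.19 (adjusted p = 0.955), Xbp1 by 0.23 ± 0.25 (0.789) and Atf4 by -0.19 ± 0.17 (0.743). In the wider lists Sesn2 was higher by 1.18 ± 0.19 and Eif2ak2, a kinase of eIF2 alpha that senses double-stranded RNA, lower by -0.76 ± 0.17. Goblet markers were higher in 4 of 8, with mean levels of 13.40 and 13.26 against 12.51 and 12.71 untreated, enterocyte markers were higher in 2 of 6 (11.08 and 11.16 against 9.89 and 9.40), and 1 of 5 stem cell markers, Smoc2, was lower. T cell markers stood at 8.05 and 7.76 against 6.72 and 5.32, with 0 of 5 called by limma and 4 at an unadjusted p below 0.05. The part of these cells was not tested.

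**Figure D4:**
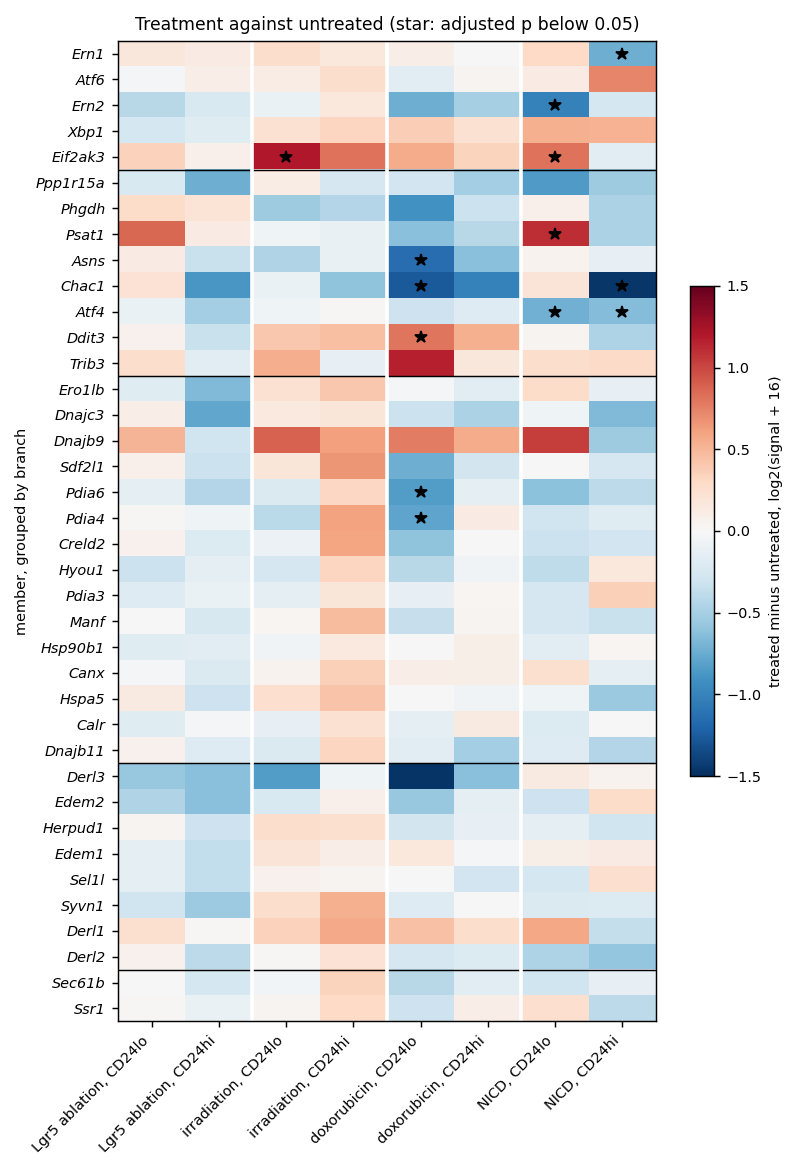
Difference of log2(signal + 16) between each treatment and untreated cells of the same fraction (columns) for all 38 members (rows, grouped by branch), on a colour scale from -1.5 to 1.5 with red for higher and blue for lower in treated cells. Stars mark an adjusted p below 0.05. Doxorubicin CD24lo cells carry 5 stars and NICD CD24hi cells 3.

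With NICD, CD24lo cells had more Psat1 and Eif2ak3 and less Ern2 and Atf4. Limma called 2 members higher, where 6.7% of all genes were, and 2 lower, where 7.72% were, and gave 10 at an unadjusted p below 0.05. Psat1 went from 10.57 and 10.34 to 11.36 and 11.77 (1.11 ± 0.26, adjusted p = 0.016), and a second probe set gave 0.44. Eif2ak3 went from 9.99 and 10.26 to 10.88 and 11.00 (0.82 ± 0.23, adjusted p = 0.031). Ern2, the IRE1 of gut epithelium, went from 11.70 and 12.59 to 11.34 and 10.91 (-1.02 ± 0.33, adjusted p = 0.049). Atf4 went from 12.31 and 12.24 to 11.74 and 11.38 (-0.72 ± 0.17, adjusted p = 0.017), while its second probe set gave 0.28. The groups did not overlap in any of these genes, which adds no support to calls made on the same arrays. Each call was lost without some arrays, in fits with a single array in a group. All of these calls were lost without untreated CD24lo replicate 2 and without CD24lo NICD replicate 2. The Ern2 call was also lost with a pseudocount of 1, quantile normalization, no filter, averaged probe sets or no intensity trend (adjusted p = 0.0521 to 0.0763), and averaged probe sets lost the calls of Atf4 (0.392) and Eif2ak3 (0.0934).

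Hspa5 differed by -0.06 ± 0.19 in these cells, Xbp1 by 0.54 ± 0.25 and Ddit3 by 0.04 ± 0.24, with adjusted p-values of 0.141 to 0.916. After quantile normalization Xbp1 was called higher there (0.70, adjusted p = 0.016). In the wider lists Fkbp11 (-1.02 ± 0.26), Sil1 (-0.91 ± 0.26), the amino acid transporter subunit gene Slc3a2 (-1.13 ± 0.24), Creb3l3 (-1.92 ± 0.50) and Creb3l4 (-1.19 ± 0.27) were lower, and 0 genes of these lists were higher. Goblet markers were lower in 3 of 8 and enterocyte markers in 3 of 6 with NICD, and T cell markers stood at 7.52 and 7.46 against 5.93 and 5.99 (2 of 5 higher). Enteroendocrine markers were higher in 2 of 7, and plasma and B cell markers in 1 of 8, and Paneth and pan-epithelial markers were each lower in 1 of 6. Their part was not tested.

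In CD24hi cells with NICD, Ern1 fell to levels that overlapped those of CD24lo cells. It stood at 11.24 and 11.15 in untreated and at 10.61 and 10.31 in NICD CD24hi cells (-0.74 ± 0.17, adjusted p = 0.015), beside 10.30 and 10.56 in NICD CD24lo cells, and its further probe sets gave -1.07 and -0.37. Chac1 fell from 9.07 and 8.98 to 6.99 and 8.15 (-1.46 ± 0.40, adjusted p = 0.040), and Atf4 from 12.52 and 12.82 to 12.10 and 11.93 (-0.65 ± 0.17, adjusted p = 0.031), with -0.10 for its second probe set. These 3 were the members called lower, where 1.86% of all genes were, and 0 were called higher, where 4.7% were. Limma gave 9 at an unadjusted p below 0.05.

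The count depended on single arrays. Without CD24hi NICD replicate 2, the array that stood apart in its control probes, 1 member passed, Chac1, and Ern1 had an adjusted p of 0.176. Without CD24hi NICD replicate 1, 14 members passed, 5 higher and 9 lower, where 18.9% of all genes passed in either direction. Without untreated CD24hi replicate 2, 0 passed, and without untreated CD24hi replicate 1, 2 passed (Atf4 and Dnajc3). The Atf4 call was also lost with averaged probe sets (adjusted p = 0.190) and no intensity trend (0.0560), and the Chac1 call with no filter (0.0563) and no intensity trend (0.0511). Hspa5 differed by -0.56 ± 0.19 (adjusted p = 0.084), Xbp1 by 0.53 ± 0.25 (0.206) and Ddit3 by -0.46 ± 0.24 (0.259). In the wider lists Fkbp7 (-1.09 ± 0.23), Erp44 (-0.72 ± 0.15), Selenos (-0.80 ± 0.18), Edem3 (-0.79 ± 0.19) and Eif2ak4 (-0.90 ± 0.21), the kinase that senses missing amino acids, were lower.

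Markers of other lineages were higher in the NICD CD24hi arrays. Tuft markers had mean levels of 10.88 and 10.86 against 8.39 and 7.68 untreated (5 of 5 higher), and enteroendocrine markers 12.49 and 13.19 against 10.04 and 9.63 (7 of 7 higher). Plasma and B cell markers, of cells with a large ER, were higher in 2 of 8 and lower in 0. All 8 of these differences were positive, with a median of 1.01. Stem cell markers were higher in 1 of 5, enterocyte markers in 1 of 6, and the 1 stroma marker tested, Vim, by 3.01. The part of these cells in the member results was not tested. The average over conditions was also fitted without the NICD condition, an alternative chosen after seeing the data. It called 18 members higher in CD24hi cells, where 27.8% of all genes were higher. Of the 16 reported calls 15 were kept and Sel1l was lost, and the chaperone and folding genes Pdia4, Dnajb9 and Sdf2l1 were gained. Without the doxorubicin condition, chosen likewise, the average called 14 higher, where 19.5% of all genes were. All were among the 16, and Chac1 and Pdia6 were lost.

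The difference between the fractions in the effect of each treatment was tested directly. For NICD, 2 members passed on the lower side, where 1.01% of all genes did, and 0 on the higher side, where 1.64% did. Limma gave 8 at an unadjusted p below 0.05. The NICD effect on Ern1 was lower in CD24hi than in CD24lo cells by -1.03 ± 0.24 (adjusted p = 0.039), with 0.30 in CD24lo and -0.74 in CD24hi cells. The effect on Psat1 was lower by -1.59 ± 0.36 (adjusted p = 0.039), with 1.11 in CD24lo and -0.48 in CD24hi cells. Further probe sets gave -1.09 and -0.64 for Ern1 and -0.41 for Psat1. Both calls were lost without any one of 6 of the 8 arrays, CD24hi NICD replicate 2 among them (differences of -0.89 and -1.11). They were also lost with no filter, averaged probe sets or no intensity trend (adjusted p = 0.0530 to 0.0639). For Hspa5, Xbp1, Ddit3 and Atf4 the differences were -0.50 ± 0.26, -0.01 ± 0.35, -0.50 ± 0.34 and 0.07 ± 0.24, short of the threshold. In the wider lists Creb3l3 passed, at 2.83 ± 0.70 (adjusted p = 0.046).

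For Lgr5 ablation, irradiation and doxorubicin limma called 0 of 38 members as differing between the fractions, where 0.0169%, 0.00844% and 0.0337% of all genes were called in either direction. At an unadjusted p below 0.05 it gave 1, 1 and 2 members. The differences for Hspa5, Xbp1, Ddit3 and Atf4 in that order were -0.45, 0.07, -0.40 and -0.40 for Lgr5 ablation, 0.18, 0.09, 0.05 and 0.08 for irradiation, and -0.06, -0.13, -0.26 and 0.12 for doxorubicin, with SEs of 0.24 to 0.35.

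The Atf4 and chaperone branches each had a group of arrays at an extreme, and some shifts were shared by several branches. In the Atf4 branch, the median of the members' levels, each taken relative to its own mean over the 20 sorted arrays, was -0.94 and -0.92 on the doxorubicin CD24lo arrays, below the -0.32 to -0.06 of every other CD24lo array. In the chaperone branch it was 0.56 and 0.52 on the irradiated CD24hi arrays, above the -0.30 to 0.33 of the other 18 sorted arrays. On the same irradiated arrays the degradation branch stood at 0.56 and 0.53 and the translocon genes at 0.39 and 0.29, their highest values too. The chaperone branch stood at -0.30 and -0.16 on the doxorubicin CD24lo arrays. These medians are descriptions and were not tested.

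**Figure D5:**
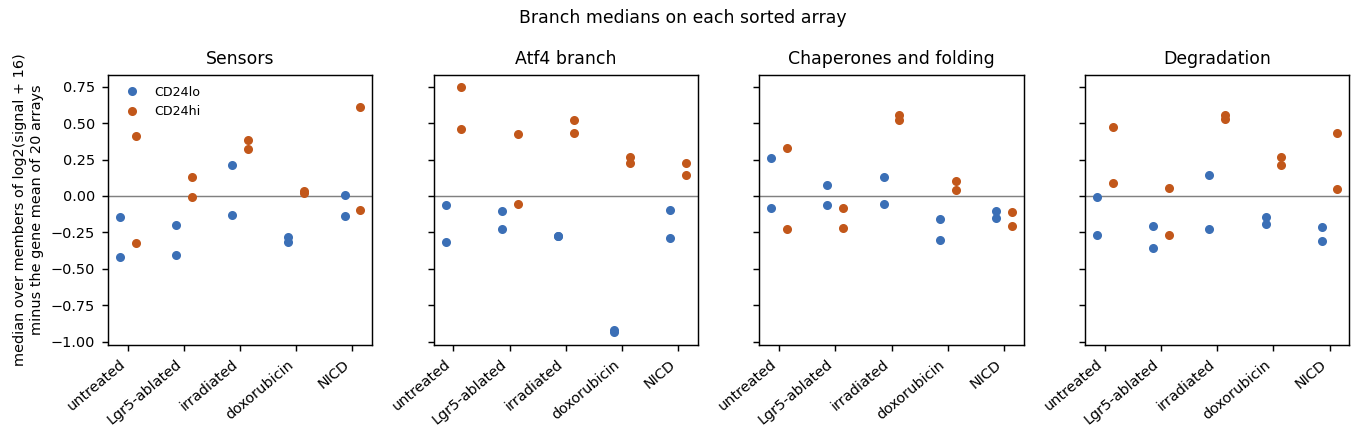
Median over the members of a branch of log2(signal + 16) minus the mean of each gene over the 20 sorted arrays (vertical axis), on each array by condition (horizontal axis), with blue for CD24lo and orange for CD24hi. Each point is 1 array. The lowest points are the 2 doxorubicin CD24lo arrays of the Atf4 branch, at -0.94 and -0.92.

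On the single whole intestine array, which has no replicate, some members lay outside the range of the sorted cells. Psat1 stood at 7.54, Ern2 at 8.49 and Sdf2l1 at 9.31, each under the lowest sorted array (9.67, 10.91 and 10.72). Trib3 stood at 9.94, above the highest sorted array at 7.81. Only 1 of its 2 probe sets passed the filter, and that one was above the array median on 3 of the 20 sorted arrays.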

How the data were processed

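The deposited table holds 1 signal intensity per probe set and array (45101 probe sets), for which the submitters' processing notes name MAS5 without a version. The intensity values deposited are linear and carry no detection calls, so a fold of a dim gene is limited. Per the labels, cDNA was made with a GeneChip Pico kit from 0.8 ng of total RNA. Signals were used as scaled by the authors, as log2(signal + 16). Probe sets with 1 gene symbol were kept when above their array's median in at least 2 of the 20 sorted arrays, and each gene was read by its kept probe set with the highest mean, while 26 members had more than 1. Ero1lb is listed as Ero1b in the array annotation and was matched through RefSeq synonyms. The 10 group means were fitted in R 4.3.3 using limma 3.58.1 (variance trend on, 10 residual degrees of freedom), and 14 comparisons were tested two-sided. The procedure was tested on simulated data. For arrays, their number limits the precision.

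The members and lists were chosen with earlier results of these data known. The rule for named genes takes every called member of a comparison, or the 12 largest beyond 12 calls, and always Hspa5, Xbp1, Ddit3 and Atf4, with up to 4 called genes per wider list. The remaining calls of the averaged comparison, members short of the threshold and the whole intestine values were named after their values were seen. Replicate numbers shared between groups were checked as pairs. The differences between replicates of 2 groups correlated at -0.41 to 0.385 over 45 pairs of groups, with 11 over 0.1 and 15 below -0.1. The numbers were not used as pairs. A range over all pairs of groups cannot decide whether the 2 fractions of a condition were paired. The fraction tests treat them as unpaired. As alternatives the pseudocount was set to 1 or 64, arrays were quantile normalized or centred on the 75th percentile, the filter or the variance trend was dropped, probe sets of a gene were averaged, a replicate block was added, and each array was left out. Averages without the NICD or the doxorubicin condition were added after seeing the data. Promoter windows come from RefSeq (GRCm38.p6).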

Additional observations from a re-analysis of the deposited data

Results flagged for a closer look

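The effect of NICD differed between the fractions for 2 members, by the test of that difference in limma. For Ern1 the effect in CD24hi cells minus that in CD24lo cells was -1.03, and for Psat1 it was -1.59, each with an adjusted p of 0.039. The CD24hi NICD group holds the array that stood apart in its control probes. Without that array the differences were -0.89 and -1.11, and both calls were lost. The loss was not particular to it, since both calls were lost without any one of 6 of the 8 arrays.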

How the results depend on the processing

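Of the 14 counts of members past the threshold, 7 alternative values other than left-out arrays moved by over 1.5 times. Averaging probe sets gave 2 for irradiation in CD24lo and 2 for NICD in CD24lo, quantile normalization gave 1 for irradiation in CD24hi, and no variance trend gave 1 for NICD in CD24hi. The difference in the effect of NICD had 0 members with no filter, with the mean of probe sets and with no trend. Leaving out an array also moved the share of all genes called for NICD. The ranges that follow are therefore not a result about the members. With each array left out in turn the counts ran from 14 to 19 around 16 (averaged fractions), 4 to 7 around 7 (untreated fractions), 0 to 1 around 1 (irradiation in CD24lo), 0 to 3 around 0 (irradiation in CD24hi), 1 to 6 around 5 (doxorubicin in CD24lo), 0 to 5 around 4 (NICD in CD24lo), 0 to 14 around 3 (NICD in CD24hi) and 0 to 13 around 2 (difference in the effect of NICD), and the other counts stayed at 0. A replicate block gave 17 for the averaged and 8 for the untreated fractions, 1, 5 and 4 for irradiation, doxorubicin and NICD in CD24lo, 3 for NICD in CD24hi and 2 for the difference in the effect of NICD, and moved no count by over 1.5 times. Shared numbers were not used as pairs. A pairing of the 2 fractions within a condition was not tested separately, and a block shared by all groups does not model it. Of 90 results of named members, 26 changed sign under 67 alternative values, 0 of them with a call on the reported value. With centring on the 75th percentile the sign turned for Xbp1 at 0.039 (difference in the effect of NICD). With probe sets averaged the sign turned for Xbp1 at 0.18 (averaged fractions), 0.0797 (untreated fractions), -0.23 (doxorubicin in CD24lo), -0.22 (doxorubicin in CD24hi), -0.06 (NICD in CD24lo), -0.0381 (difference in the effect of Lgr5 ablation), 0.0083 (difference in the effect of doxorubicin) and 0.31 (difference in the effect of NICD), Hspa5 at -0.0856 (untreated fractions) and 0.0463 (NICD in CD24lo), Atf4 at 0.0412 (Lgr5 ablation in CD24lo), 0.20 (irradiation in CD24lo), -0.045 (difference in the effect of doxorubicin) and -0.16 (difference in the effect of NICD) and Ddit3 at -0.13 (difference in the effect of irradiation). With quantile normalization the sign turned for Xbp1 at 0.0398 (untreated fractions), Hspa5 at -0.082 (doxorubicin in CD24lo) and 0.0874 (NICD in CD24lo), Ddit3 at -0.0004 (NICD in CD24lo) and Atf4 at -0.0328 (difference in the effect of NICD). With each array left out in turn, Hspa5 ran from -0.10 to 0.0167 (averaged fractions), -0.0569 to 0.31 (untreated fractions), -0.0657 to 0.0709 (doxorubicin in CD24lo), -0.23 to 0.13 (doxorubicin in CD24hi), -0.0053 to 0.36 (difference in the effect of irradiation) and -0.24 to 0.13 (difference in the effect of doxorubicin). Xbp1 ran from -0.11 to 0.0276 (averaged fractions), -0.30 to 0.21 (untreated fractions), -0.0291 to 0.49 (irradiation in CD24lo), -0.18 to 0.33 (difference in the effect of Lgr5 ablation), -0.17 to 0.35 (difference in the effect of irradiation), -0.39 to 0.12 (difference in the effect of doxorubicin) and -0.35 to 0.33 (difference in the effect of NICD). Ddit3 ran from -0.12 to 0.25 (Lgr5 ablation in CD24lo), -0.0246 to 0.11 (NICD in CD24lo) and -0.30 to 0.40 (difference in the effect of irradiation). Atf4 ran from -0.14 to 0.17 (irradiation in CD24hi), -0.0743 to 0.23 (difference in the effect of irradiation), -0.0311 to 0.28 (difference in the effect of doxorubicin) and -0.12 to 0.25 (difference in the effect of NICD). Each of these values was short of the threshold as reported, and the cause was not tested. No fold is firm for dim genes (Trib3, Derl3, Chac1), and 2 arrays per group limit the precision.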
